A study of Mus musculus with 30 samples.

Results

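The libraries described here compare v-Abl-transformed mouse pro-B cells that lack the CTCF-binding elements (CBEs) beyond the 3′ end of the antibody heavy-chain locus (Igh) with cells of the line that carries them. Members were chosen by their labels alone: the 3 libraries named 3CBEdel_untreat_Abl and the 3 named WT_untreat_Abl, which is 6 of the 30 libraries in the series and 6 of its 12 v-Abl libraries. Both groups were C57BL/6 v-Abl pro-B cells labelled RAG1-/-, Emu-Bcl2, WAPL degron and single Igh, so the control carries every one of those changes too, and the degron was not induced in either group. The 3CBEdel group differs from WT by the 3IghCBEs deletion. All cells were kept in RPMI1640 with 15% FBS and infected with a RAG1/2 retrovirus, and STI-571, an inhibitor of the Abl kinase that arrests them, was given at 3 µM for 4 days. The labels do not say how many clones stand behind each genotype or whether the 3 libraries of a group came from separate cultures, so all p-values measure the spread between these libraries, which may be technical. A line is also not a mouse: any difference between the lines other than the deletion cannot be told apart from it. The other v-Abl libraries, labelled WT_DoxIAA_Abl and 3CBEdel_DoxIAA_Abl, had the same STI-571 dose and time and were also given IAA and Dox. They are called WAPL depleted below, but the loss of WAPL was not tested. They enter only where they or all 12 v-Abl libraries are named.

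An Igh gene is put together in order: a D segment is joined to a JH segment, and a V segment is then joined to the DJH unit. The RAG enzyme cuts at recombination signals beside each segment, which consist of a heptamer and a nonamer held apart by a short spacer (both sides of D) or a long spacer (V and JH), and it joins a short-spacer signal to a long-spacer one. Cohesin moves chromatin along as a loop past RAG bound at the D and JH segments, and CTCF bound at CBEs slows this movement, at IGCR1 between V and D and at the array beyond the 3′ end. In HTGTS-V(D)J-seq, genomic DNA is amplified outward from a bait at the JH4 segment, and the sequence joined to the bait is read. A read that lands at D is a DJH join and one that lands at V is a completed VDJH join.

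The libraries held 139267, 140765 and 175957 rows in WT and 127085, 131524 and 82947 in 3CBEdel, where 1 row is 1 read with a junction. Levels are joins per 100000 rows of a library, so a level is a share of the junctions and not an amount of recombination per cell; fewer cells that recombined and fewer joins per cell cannot be told apart. V and D joins together took 98.6% to 98.7% of rows in WT and 99.0% in each 3CBEdel library. Reads repeat within libraries: 47.1% to 48.9% of the rows were distinct reads in 5 libraries and 68.6% in 3CBEdel replicate 3, which was also the shallowest. The read names place WT replicates 2 and 3 and 3CBEdel replicates 1 and 2 in 1 run, called the shared run here, and the other libraries in runs of their own. Genomic DNA holds no expressed markers by which the cell type could be checked, and a bait at JH4 does not read across the deletion, so neither label was tested by these files.

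The segments on which the results turn are shown by their recombination signals, with heptamer and nonamer in capitals and the coding end and spacer in lower case. All lie on the minus strand of chromosome 12 in mm9 (NCBIM37) and are written 5′ to 3′ in the direction of transcription. D segments are given from JH towards V, at chr12:114668711-114668749, chr12:114689034-114689077, chr12:114713583-114713626 and chr12:114720353-114720396.
Ighd4-1: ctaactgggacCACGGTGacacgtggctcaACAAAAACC
Ighd2-8: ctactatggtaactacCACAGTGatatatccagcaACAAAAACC
Ighd2-3: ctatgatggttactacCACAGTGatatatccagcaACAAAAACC
Ighd1-1: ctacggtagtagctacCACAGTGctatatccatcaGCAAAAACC
These are the D signals on the JH side, and the D signals on the V side were not compared. Those of Ighd2-8 and Ighd2-3 on the JH side were identical over their 28 bases. That of Ighd4-1 differed from Ighd1-1 at 9 of 28.

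V segments are given from the D side outward, at chr12:114816676-114816730, chr12:114863678-114863732, chr12:114940296-114940350, chr12:114974283-114974337 and chr12:115008022-115008076.
Ighv5-2: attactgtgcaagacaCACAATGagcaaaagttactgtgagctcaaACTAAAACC
Ighv5-6: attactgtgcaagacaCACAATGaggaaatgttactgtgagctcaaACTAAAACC
Ighv5-12: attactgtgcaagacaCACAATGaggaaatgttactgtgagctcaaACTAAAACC
Ighv5-9-1: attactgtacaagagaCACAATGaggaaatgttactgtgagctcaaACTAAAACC
Ighv2-9-1: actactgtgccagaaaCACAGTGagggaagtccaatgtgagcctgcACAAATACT
The 39-base signals of Ighv5-4, Ighv5-6, Ighv5-12 and Ighv5-9-1 were identical, and Ighv5-2 differed from each of them at 2 spacer bases, with the same heptamer and nonamer. Over 159 bases of coding sequence, the median length read past the junction, these Ighv5 members differed from each other at 9 to 25 positions.

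The first question was whether the deletion moved the balance between DJH and VDJH joining. Over the 6 libraries no shift beyond their spread was seen. V joins were 1.72%, 1.90% and 2.04% of V plus D joins in WT and 1.86%, 1.67% and 1.88% in 3CBEdel, and the groups overlapped. The means were 1.88% ± 0.161 and 1.81% ± 0.116 (SD, n = 3 each; exact two-sided permutation test, p = 0.4, where 3 against 3 libraries can give no less than 0.1). A p above the threshold does not show that the shares are equal. Within the shared run, with 2 libraries a group, the means were 1.97% and 1.77%, and the libraries did not overlap (exact permutation p = 0.33, the smallest possible there). With distinct reads the difference (3CBEdel minus WT) was -0.285 percentage points (exact permutation p = 0.2). D joins were 96765 ± 179 per 100000 rows in WT and 97221 ± 123 in 3CBEdel, and here the libraries did not overlap (exact permutation p = 0.1). The same held for 22 of all 51 single measures (43.1%). A level is a share of the rows, so a rise of D joins goes with falls elsewhere and is not separate from them. Inversional joins, those whose prey runs against deletional joining, were 0.0689% ± 0.0163 of D joins in WT and 0.0809% ± 0.0192 in 3CBEdel (exact permutation p = 0.4). Of V joins they were 0.539% ± 0.132 and 0.416% ± 0.0941 (exact permutation p = 0.3).

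Which V segments were joined did differ. Ighv5-2, the V segment that takes most V joins in these cells and lies near the D end of the V cluster, fell in 3CBEdel. Ighv5-6, Ighv5-12, Ighv5-9-1 and Ighv2-9-1, which lie farther from D, rose. Junctions per segment were fitted with limma voom over the 34 segments with at least 10 joins in at least 3 of the 6 libraries, 23 V and 11 D, with Benjamini-Hochberg adjustment and a threshold of 0.05. Of these 34, 8 passed (23.5%), 4 higher (11.8%) and 4 lower (11.8%). The median log2 change over all 34 was 0.11. In 14 of the 34 (41.2%) the libraries of the groups did not overlap. The number of segments that passed rested on single libraries: it was 3 without WT replicate 2, 3 without WT replicate 3, 5 without 3CBEdel replicate 1 and 2 without 3CBEdel replicate 3. No segment passed the count filter through the libraries of 1 group only. The filter leaves out much of the V cluster: of 124 V segments or positions, 99 had at least 1 join in these libraries and 23 were tested.

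Ighv5-2 (chr12:114816715-114817201, 96.3 kb from Ighd1-1) stood at 792, 834 and 883 joins per 100000 rows in WT and at 569.7, 495 and 579 in 3CBEdel. Every 3CBEdel library lay below every WT library. The mean went from 836 ± 45.3 to 548 ± 46.0, a log2 change of -0.62 ± 0.12 (SE; limma voom, adjusted p = 3.3e-05). Its share of V joins was 45.1% ± 1.49 in WT and 30.6% ± 0.640 in 3CBEdel, without overlap.

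Ighv5-12 (chr12:114940335-114940789, 219.9 kb from Ighd1-1) showed the opposite shift. It stood at 42.4, 43.3 and 42.1 joins per 100000 rows in WT and at 108, 80.6 and 115 in 3CBEdel, 2.37 times the WT mean (log2 change 1.21 ± 0.22, limma voom adjusted p = 3.3e-05). The lowest 3CBEdel library was well above the highest WT library. These 2 segments passed in the fit reported and in all 16 alternatives tried.

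Ighv5-6 (chr12:114863717-114864167), between them, stood at 64.6, 51.9 and 55.1 in WT and at 90.5, 90.5 and 98.9 in 3CBEdel (log2 change 0.70 ± 0.19, limma voom adjusted p = 0.0067). Farther out, Ighv5-9-1 (chr12:114974322-114974781) stood at 5.03, 11.4 and 10.8 against 29.1, 23.6 and 38.6 (log2 change 1.67 ± 0.53, limma voom adjusted p = 0.025). Ighv2-9-1 (chr12:115008061-115008494) stood at 1.44, 7.81 and 6.82 against 34.6, 12.9 and 22.9 (log2 change 2.15 ± 0.82, limma voom adjusted p = 0.049). In each of these the groups did not overlap, but the last 2 rest on 142 and 105 joins in all 6 libraries. Of the 16 alternatives, Ighv5-6 and Ighv5-9-1 passed in 9 each and Ighv2-9-1 in 7. Within the shared run, with 2 libraries a group, limma voom left Ighv5-2 and Ighv5-12 as the segments that passed.

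**Figure D1:**
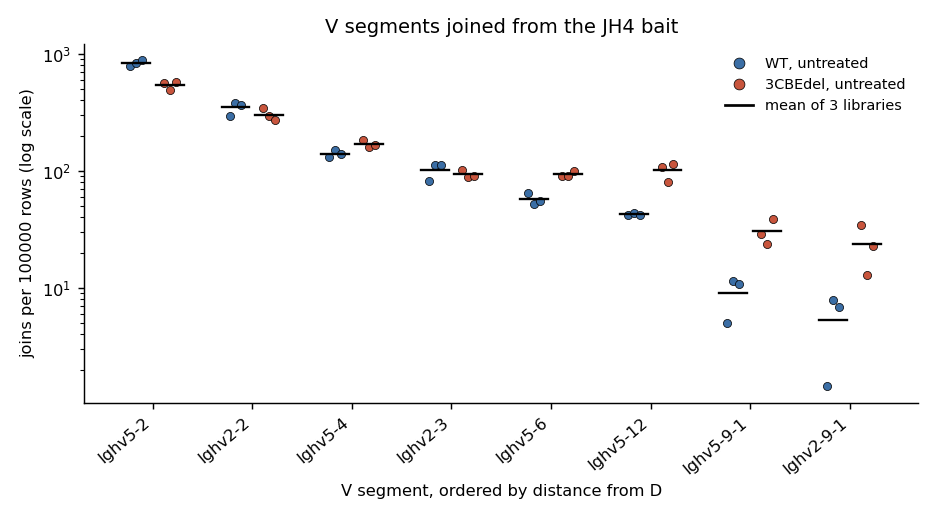
Joins per 100000 rows (log scale) for 8 V segments ordered by distance from D, with 1 point per library and a bar at each group's mean of 3 libraries. Ighv5-2 is lower in every 3CBEdel library, and Ighv5-4, Ighv5-6, Ighv5-12, Ighv5-9-1 and Ighv2-9-1 are higher in every 3CBEdel library than in any WT library.

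The other segments near D did not pass over all rows. Ighv2-2 was at 349 ± 49.4 and 302 ± 37.7 joins per 100000 rows (log2 change -0.20, 95% interval -0.49 to 0.09; limma voom adjusted p = 0.26). Ighv2-3 was at 103 ± 17.4 and 93.9 ± 7.31 (log2 change -0.11, 95% interval -0.48 to 0.25; limma voom adjusted p = 0.65). A cluster of joins on the D side of Ighv5-2, at chr12:114811137-114811144, has no annotated V segment in mm9, and RefSeq lists the pseudogene Ighv5-1 as the neighbour there. It was at 40.6 ± 11.9 in WT and 24.4 ± 7.86 in 3CBEdel, with overlap (limma voom adjusted p = 0.13). Ighv5-4 (chr12:114835657-114836116) was at 131, 151 and 140 joins per 100000 rows in WT and 185, 160 and 165 in 3CBEdel. Its groups did not overlap, and it passed only as a share of V joins (log2 change 0.35 ± 0.11, limma voom adjusted p = 0.012). Over all rows its log2 change was 0.27 (limma voom adjusted p = 0.20). Shares of V joins add up to the whole, so the fall of Ighv5-2 raises those of the other V segments. How much of the rise of Ighv5-4 this makes up was not tested.

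As shares of V joins, 6 of the 23 V segments passed (26.1%): the 4 risers named above and Ighv5-4 were higher (21.7%), and Ighv5-2 was lower (4.35%). These rises in share are not separate from the fall of Ighv5-2. Of the 5 tested V positions up to Ighv2-3, 1 was higher in its point estimate and the median log2 change was -0.20. Of the 18 beyond Ighv2-3, 15 were higher and the median was 0.77, with 4 passing upward and 0 downward in limma voom over all rows. The V segments beyond Ighv2-3, tested or not, together took 358, 357 and 450 joins per 100000 rows in WT. In 3CBEdel they took 624, 586 and 739, 1.67 times as many, with no overlap. The cut at Ighv2-3 was not planned. It falls just before Ighv5-6, the nearest to D of the segments that passed upward over all rows, so these counts and sums are no separate test. Ighv5-2 and the 2 positions on its D side went from 877 ± 54.9 to 572 ± 38.1. The same joins per 100000 rows over all V were 1857 ± 158 and 1788 ± 114. With the V cluster cut as planned into 3 parts of equal length, no part passed. From the D side outward the log2 changes were -0.08, 0.29 and 0.48 (limma adjusted p = 0.70, 0.70 and 0.55).

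By family, 7 of the 10 Ighv5 members were tested: 3 rose, 1 fell and the median log2 change was 0.70, near that of all 23 tested V segments, of which 16 were higher, 4 rose, 1 fell and the median was 0.62. Of the 10 Ighv2 members 7 were tested, 1 rose and the median was 0.30. The Ighv1 family, the largest with 58 members and located in the distant part of the cluster, had 257 joins in WT and 231 in 3CBEdel over 45 members, and 1 member, Ighv1-47, was deep enough to test (limma voom adjusted p = 0.24). The third of the V cluster farthest from D held 184 joins in WT and 202 in 3CBEdel. Most distal V segments were too shallow to be tested one by one.

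**Figure D2:**
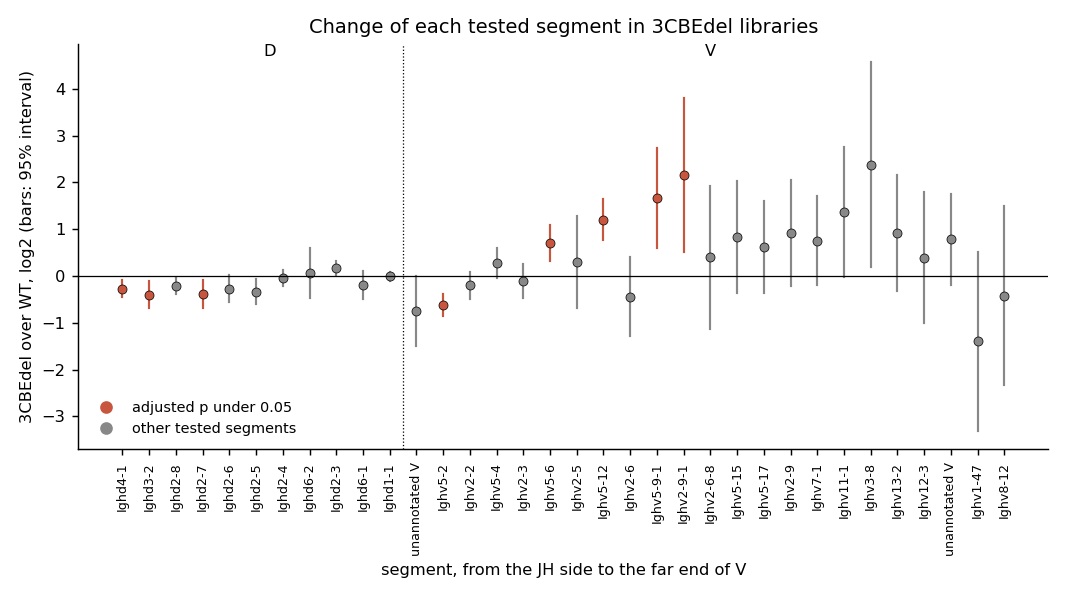
Log2 change of 3CBEdel over WT for the 34 tested segments in their order along the locus, from the D segment next to JH to the farthest tested V segment, with 95% intervals from limma voom; red points have an adjusted p under 0.05. Ighv5-2 and 3 red D segments (Ighd4-1, Ighd3-2 and Ighd2-7) lie below 0, and 15 of the 18 V segments beyond Ighv2-3 lie above it, 4 of them red.

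D segments changed less. Ighd1-1, the D of the main cluster nearest to V, took most D joins: 71216, 71443 and 69902 per 100000 rows in WT and 67456, 73216 and 70742 in 3CBEdel, which overlapped (limma voom adjusted p = 0.86). Ighd2-3, the next most joined D, was at 15637 ± 497 and 17723 ± 3136 (limma voom adjusted p = 0.097). Ighd4-1, also known as DQ52 and the D nearest to JH, fell from 1747, 1896 and 2011 to 1559, 1604 and 1526 joins per 100000 rows (log2 change -0.27 ± 0.09, limma voom adjusted p = 0.044), and the groups did not overlap.

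Of the 11 tested D segments, 3 fell (Ighd4-1, Ighd3-2 and Ighd2-7, limma voom adjusted p between 0.044 and 0.049) and the median log2 change was -0.21, beside 0.11 over all 34 segments. Ighd3-2 went from 405 ± 61.0 to 308 ± 54.3 and Ighd2-7 from 338 ± 34.7 to 259 ± 51.2, and both groups overlapped. Ighd2-8 was at 3482 ± 54.5 and 3016 ± 199 without overlap (limma voom adjusted p = 0.061), and Ighd2-5 was at 499 ± 81.5 and 394 ± 34.9, also without overlap (adjusted p = 0.054). Ighd2-4, Ighd2-6, Ighd6-1 and Ighd6-2 did not pass either. Of the 16 alternatives, Ighd4-1 passed in 10, Ighd3-2 in 7 and Ighd2-7 in 5. The 6 Ighd2 members, which lie between Ighd4-1 and Ighd1-1, had a median log2 change of -0.24. As shares of D joins 0 of the 11 passed in limma voom (0%), with 3 at an unadjusted p under 0.05 (27.3%), and Ighd4-1 and Ighd2-8 were both at an adjusted p of 0.051. That count was 2 without WT replicate 1, 2 without WT replicate 2 and 4 without 3CBEdel replicate 2. Ighd2-5 and Ighd2-6 have the same sequence over 17 bases, and the deposited alignment decided which of them received a join.

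The D segment that stays between V and JH4 in a completed join can be read from the bases between bait and prey. A D was called where a run of at least 8 bases, taken from the bases between and 3 bases of bait and prey on either side, matched 1 D segment only, which succeeded in 77.8% ± 1.09 of V joins in WT and 80.7% ± 0.223 in 3CBEdel, without overlap. The commonest stretch of Ighv5-2 joins with Ighd1-1, seen in 45 joins over 6 libraries, shows the layout on the strand of the bait read, with bait and V in lower case and the bases between them in capitals.
Ighv5-2 with Ighd1-1: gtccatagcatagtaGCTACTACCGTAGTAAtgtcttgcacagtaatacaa
The prey begins at chr12:114816715, the end of the Ighv5-2 coding sequence.

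Inside V joins, the shares of Ighd4-1, Ighd3-2, Ighd2-8 and Ighd2-4 fell in 3CBEdel and that of Ighd1-1 rose. These shares of the readable D add up to the whole, so the falls raise the shares of the rest. How much of the rise of Ighd1-1 this makes up was not tested. Ighd2-7, which lies between Ighd2-8 and Ighd2-4, was at 1.73% ± 1.02 and 1.44% ± 0.316 with overlap (limma voom adjusted p = 0.71), and Ighd2-3 did not pass either. The difference between V joins and D joins was not tested, and the shares are measured differently. D joins are assigned by position, whereas a D inside a V join needs a run that matches 1 D segment only. Ighd2-5 and Ighd2-6, identical in sequence, are therefore not read inside V joins. Ighd2-8 was in 8.38%, 9.15% and 8.91% of V joins with a readable D in WT and in 3.64%, 4.15% and 3.14% in 3CBEdel. The 3CBEdel values were 0.413 of the WT values on average, and the groups did not come near each other (log2 change -1.23 ± 0.19, limma voom adjusted p = 4.3e-06). In D joins its share was 3.60% ± 0.0613 in WT and 3.10% ± 0.202 in 3CBEdel, 0.862 of the WT mean.

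Ighd3-2 went from 1.5%, 1.96% and 1.58% to 0.580%, 0.455% and 0.161% (log2 change -2.11 ± 0.45, limma voom adjusted p = 2.3e-04). Ighd4-1 went from 2.26%, 1.96% and 1.44% to 0.949%, 0.854% and 0.322% (log2 change -1.38 ± 0.43, limma voom adjusted p = 0.0061). Both are thin, with 132 and 158 joins in all. The Ighd4-1 result depends on the run length: with runs of 10 bases it was read in 22, 0 and 13 V joins of WT and 7, 4 and 1 of 3CBEdel, and the difference of its share went from -1.17 to -0.367 percentage points (exact permutation p = 0.5). In D joins, Ighd3-2 was at 0.419% ± 0.0637 and 0.316% ± 0.0555 and Ighd4-1 at 1.95% ± 0.140 and 1.61% ± 0.0384. Ighd2-4, closer to V, was lower by a smaller amount, 8.98% ± 0.598 against 6.96% ± 0.466 (limma voom adjusted p = 0.0031), beside 3.03% ± 0.174 and 2.93% ± 0.0749 of D joins.

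Ighd1-1 rose from 46.9%, 46.9% and 44.9% to 52.6%, 57.7% and 48.1% (log2 change 0.22 ± 0.08, limma voom adjusted p = 0.013). Of D joins it was 73.2% ± 0.780 and 72.5% ± 2.90. Ighd2-3 was at 30.5% ± 0.961 and 34.0% ± 5.72, and its groups overlapped (limma voom adjusted p = 0.22), beside 16.2% ± 0.531 and 18.2% ± 3.24 of D joins. Its signal on the JH side matches that of Ighd2-8 base for base, and the signals on the V side were not compared. Of the 7 D segments tested inside V joins, 5 passed (71.4%), 1 higher (14.3%) and 4 lower (57.1%). This fit was added after the values had been seen. Without WT replicate 1 the number that passed was 3. Within the shared run Ighd3-2 and Ighd2-8 passed and Ighd4-1, Ighd2-4 and Ighd1-1 did not.

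The V composition of the libraries also differed, so the same shares were taken within Ighv5-2 joins alone. There Ighd2-8 was at 13.9%, 15.4% and 12.6% in WT and 5.42%, 9.40% and 2.93% in 3CBEdel (log2 change -1.31 ± 0.39, limma voom adjusted p = 0.014), again without overlap. In the joins of all other V segments it was at 5.02% ± 1.09 and 2.73% ± 0.599 (limma voom adjusted p = 0.061). Ighd4-1 passed in the other V segments, at 1.81% ± 0.368 and 0.544% ± 0.367 (limma voom adjusted p = 0.033), and not in Ighv5-2 joins (adjusted p = 0.42). Ighd1-1 passed in neither: it was at 34.4%, 35.5% and 38.2% against 37.9%, 42.8% and 47.6% in Ighv5-2 joins (limma voom adjusted p = 0.089) and at 56.7%, 55.0% and 49.8% against 58.6%, 63.6% and 48.3% in the others (adjusted p = 0.65). Its groups overlapped in both.

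**Figure D3:**
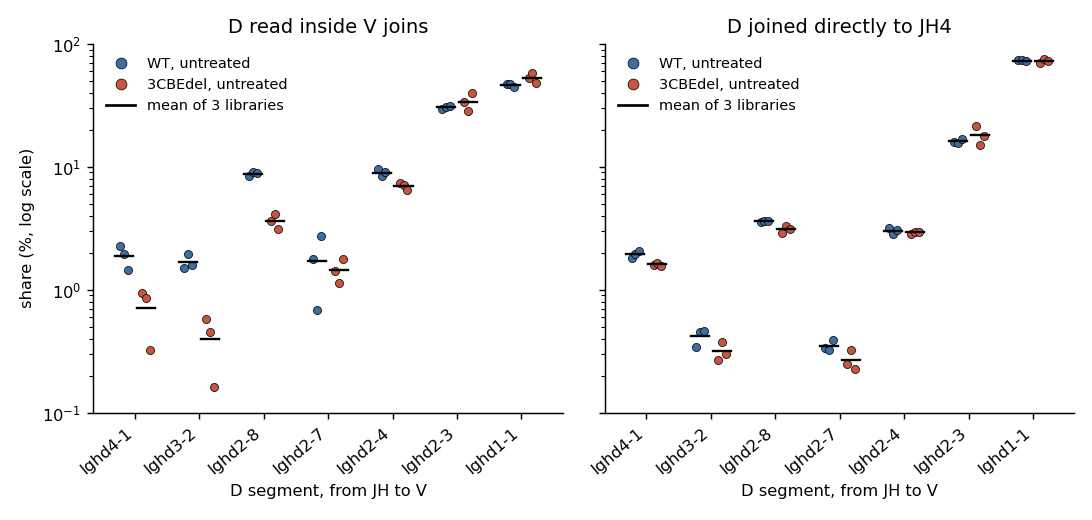
Shares (log scale) of 7 D segments read inside V joins on the left and joined directly to JH4 on the right, with 1 point per library and a bar at the mean of 3 libraries. Ighd4-1, Ighd3-2, Ighd2-8 and Ighd2-4 are lower in every 3CBEdel library inside V joins, and of these Ighd4-1 and Ighd2-8 are so in D joins, by less.

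Joins of the JH4 bait to another JH segment formed the zone of the locus that changed. Every row falls in 1 of 11 zones (JH, the stretch from JH to the constant genes, the region beyond them, 3 zones of D, the interval from D to V, 3 parts of the V cluster and the rest of the genome), and log2(joins per 100000 rows + 1) was tested with limma. The JH zone passed (log2 change -0.76 ± 0.08, adjusted p = 0.0026), 1 zone of 11 (9.09%). The zone of the first D, Ighd4-1 (log2 change -0.27 ± 0.08), and the interval from D to V (log2 change -0.50 ± 0.16) were next. Both had a limma adjusted p of 0.085, and the groups did not overlap in either. Within the shared run the JH zone kept its direction (log2 change -0.70 ± 0.15), and limma gave an adjusted p of 0.14.

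Nearly all JH joins were opposite to the deletional orientation. They stood at 453, 413 and 418 per 100000 rows in WT and at 259.7, 229 and 238 in 3CBEdel, so every 3CBEdel library was far below every WT library and the mean was 0.565 of that in WT (exact permutation p = 0.1, the smallest possible; 0.23 after adjustment over 51 single measures, of which 22, or 43.1%, had groups that did not overlap). Within the shared run the means were 416 and 244. Counted per 100 D joins, the ratio was 0.442 ± 0.0216 in WT and 0.249 ± 0.0166 in 3CBEdel.

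Each of the 3 JH segments was lower in 3CBEdel. Ighj3 was at 348, 335 and 346 against 218, 180.2 and 190.5 joins per 100000 rows. Ighj2 was at 86.2, 61.8 and 59.7 against 33.8, 38.8 and 37.4. Ighj1, the farthest from the bait and nearest to D, was at 18.7, 16.3 and 13.1 against 7.87, 9.88 and 9.64. The 3CBEdel means were 0.572, 0.530 and 0.570 of the WT means, and none of the 3 had overlapping groups. JH joins in the deletional orientation were few, 20.0 ± 6.60 and 14.1 ± 10.3, and their groups overlapped (exact permutation p = 0.4).

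Most opposite JH joins held a readable D segment that runs against its usual direction relative to JH4. An example is this stretch of an Ighj3 join (prey from chr12:114667344, 14 joins). Its capitals are the Ighd1-1 bases between JH4 and Ighj3, and they run in the same direction as Ighj3.
Ighj3 with Ighd1-1: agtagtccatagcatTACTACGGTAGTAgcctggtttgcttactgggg
Such a D could be read in 74.9% ± 3.58 of opposite JH joins in WT and 71.0% ± 4.91 in 3CBEdel, and Ighd1-1 was 59.6% ± 3.77 and 52.8% ± 8.89 of these. Neither share differed beyond the spread (exact permutation p = 0.4 for each). For comparison, the signals of the 2 JH segments, at chr12:114667328-114667382 and chr12:114666763-114666817, read as follows, with nonamer and heptamer in capitals before the coding sequence.
Ighj3: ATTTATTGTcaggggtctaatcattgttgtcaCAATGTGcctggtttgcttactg
Ighj4: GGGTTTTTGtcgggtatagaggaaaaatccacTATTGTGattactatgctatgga

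Between Ighd1-1 and the first V segments, where IGCR1 lies, joins stood at 546, 578 and 582 per 100000 rows in WT and at 322, 477 and 419 in 3CBEdel, without overlap (exact permutation p = 0.1). Of these, 98.3% ± 1.34 and 99.1% ± 0.932 lay within 5 kb of Ighd1-1. A D was readable in 58.8% ± 5.68 and 60.6% ± 5.62 of the joins in these 5 kb, so many of them were joins of a DJH unit to a site that is no annotated V segment.

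Joins were concentrated at 5 sites 1010 to 3623 bp from Ighd1-1, each directly or within 3 bases next to a CAC, the start of a heptamer, on the minus strand. The most joined and the one closest to a consensus signal are shown with the heptamer in capitals, at chr12:114724005-114724043 and chr12:114722348-114722386.
site 114724026: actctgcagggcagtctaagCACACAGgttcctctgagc
site 114722367: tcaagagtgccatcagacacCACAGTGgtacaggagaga
The first stood at 147, 144 and 166 in WT and at 92.1, 105 and 121 in 3CBEdel, and the second at 70.4, 76.0 and 72.2 against 25.2, 55.5 and 57.9. Neither had overlapping groups, and a further site 3143 bp from Ighd1-1 was also lower in every 3CBEdel library (79.6 ± 2.21 and 63.3 ± 5.25). Of all 51 single measures, which include the whole interval and these sites, 22 (43.1%) had groups without overlap. A lack of overlap alone therefore does not set these sites apart. The other two sites overlapped: at 1010 bp the level was 109 ± 7.78 in WT and 102 ± 22.9 in 3CBEdel, and at 3494 bp 36.1 ± 16.1 and 17.8 ± 10.2 (exact permutation p = 0.6 and 0.2).

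**Figure D4:**
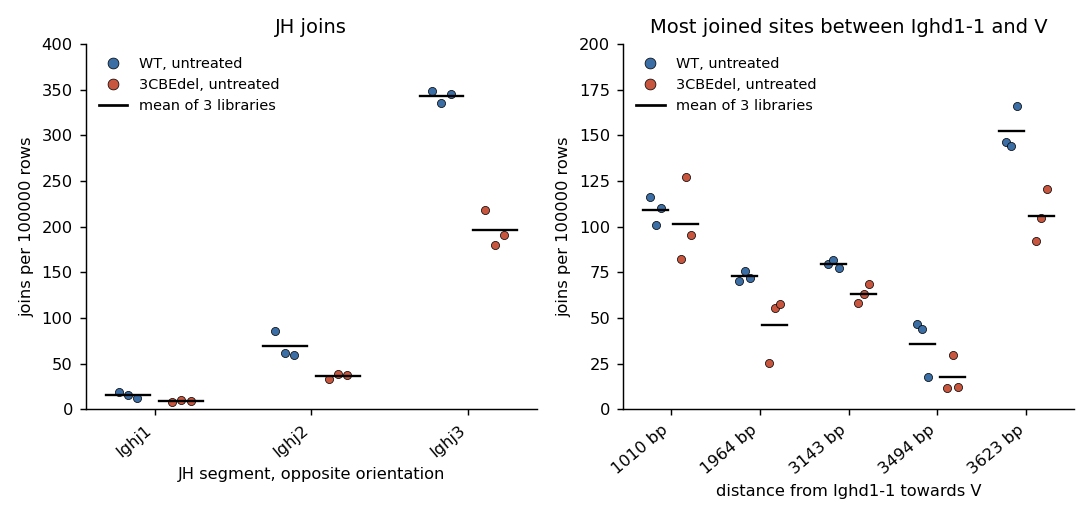
Joins per 100000 rows to Ighj1, Ighj2 and Ighj3 in the opposite orientation (left) and at the 5 most joined sites between Ighd1-1 and V, named by distance (right), with 1 point per library and a bar at the mean of 3 libraries. Points of 3CBEdel lie below all WT points for each JH segment and for the sites at 1964, 3143 and 3623 bp.

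Joins beyond the 3′ end of Igh were rare. In the 500 kb below Ighe (annotated as Gm900, from chr12:114509391) there were 31 joins in 455989 WT rows and 15 in 341556 3CBEdel rows, and the levels per library were 1.44, 15.6 and 3.98 in WT and 6.30, 0.760 and 7.23 in 3CBEdel per 100000 rows. The groups overlapped (exact permutation p = 0.8). WT replicate 2 held 22 of the 31 WT joins, and without it the 3CBEdel mean was the higher by 2.06 per 100000 rows.

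The positions of these joins did not mix. All 31 WT joins lay at chr12:114461085-114489359, 177 to 206 kb from JH4, between a U6 gene and Ighe. All 15 joins of 3CBEdel lay farther out, at chr12:114386889-114395269, 271 to 279.8 kb from JH4, around Crip1 (chr12:114390223-114392088) and beyond Tmem121 (chr12:114424114-114427731). This split was noticed after the values were seen and carries no test. A count of 0 WT joins beyond Tmem121 allows a level of up to 0.658 per 100000 rows, and 0 joins of 3CBEdel on the Igh side of it allow up to 0.878. These limits cover counting error only, and reads repeat: the 31 and 15 joins were 22 and 11 distinct reads. The coordinates of the deletion were not given in the sources used here, so whether the WT positions lie inside it was not tested.

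The main position in 3CBEdel, joined in replicate 1 and within 3 bases in replicate 3, lies between Crip2 and Crip1 next to a heptamer on the minus strand (chr12:114386871-114386909). The main WT position, joined in all 3 libraries, starts with CAC on the plus strand (chr12:114461072-114461111).
site 114386890: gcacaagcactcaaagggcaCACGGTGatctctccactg
site 114461087: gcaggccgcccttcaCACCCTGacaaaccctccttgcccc
Joins at both places carried a D segment between bait and prey, as in these stretches, found in 4 joins of 1 library each, with the bases between in capitals (prey from chr12:114386893 and chr12:114461088). In the WT stretch 7 bases lie between, and the run called Ighd4-1 takes in bases shared with the bait or the prey.
3CBEdel with Ighd1-1: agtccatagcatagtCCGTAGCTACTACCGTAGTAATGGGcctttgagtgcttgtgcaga
WT with Ighd4-1: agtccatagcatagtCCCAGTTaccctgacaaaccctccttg
The libraries of the same lines with WAPL depleted held 12 WT joins at chr12:114461087-114478254 and 4 joins of 3CBEdel at chr12:114406490, on the same sides. These are few: 8 distinct reads in 2 WT libraries and 2 distinct reads in 1 library of 3CBEdel. A count of 0 on the other side still allows up to 3.66 per 100000 rows in WT and 5.35 in 3CBEdel.

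**Figure D5:**
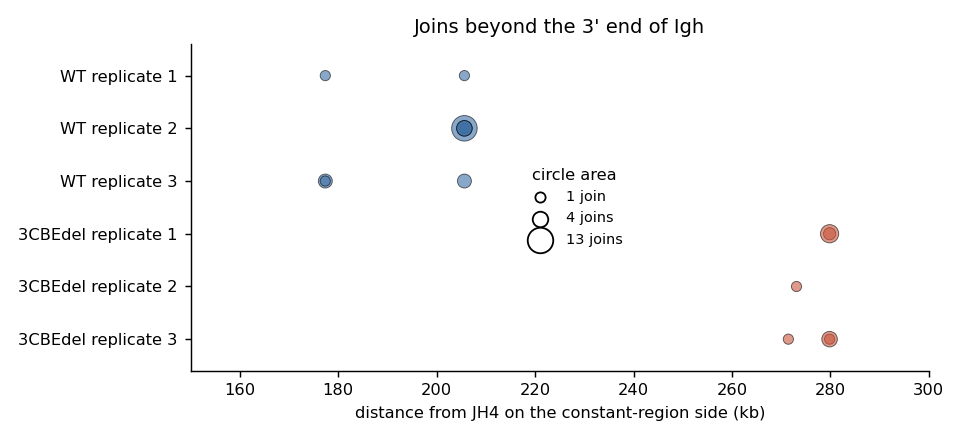
Distance from JH4 (kb, on the side of the constant genes) of each joined position beyond the 3′ end, by library, with circle area growing with the number of joins. The WT libraries have joins at 177 to 206 kb and the 3CBEdel libraries at 271 to 279.8 kb.

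The effect of the deletion in untreated cells was also set against the same contrast in the cells with WAPL depleted, those given IAA and Dox. The interaction of genotype and treatment was fitted with limma voom over the 34 segments in all 12 v-Abl libraries, and 0 segments passed (0%), with 6 at an unadjusted p under 0.05 (17.6%). For Ighv5-2 the interaction had an adjusted p of 0.47 and for Ighv5-12 of 0.077, so a difference between the states was not shown for either.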

How the data were processed

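The deposited files, per the file headers, list 1 read with a bait-to-prey junction per row, with positions and strands in mm9 (unit: other, that is positions and not abundances). Per the submitters' processing notes the authors aligned reads with Bowtie2, version not stated. Per the labels' protocols the enzyme blocking step was left out. Rows were counted here by V, D or J segment (within 100 bp, annotation of NCBIM37, names updated through RefSeq) and by zone.

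Segments with at least 10 joins in at least 3 libraries entered voom (limma 3.58.1, run under R 4.3.3), where library size was all rows, V joins or D joins and genotype the only term. Zones were fitted with limma on log2(level + 1). Single measures had exact two-sided permutation tests over 20 relabelings. The segment fit was run on simulated counts with known changes. Their spread between libraries was held fixed, so the simulation does not cover thin segments with a wider spread.

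The segments described are every tested D, the V segments nearest D, and called V segments without overlap. The members and lists were chosen with earlier results of these data known, and the fit of D inside V joins was added after seeing the data. Alternatives were leaving out libraries, the shared run, a replicate block, distinct reads, other windows, run lengths, filters, scalings and pseudocounts, and all 12 v-Abl libraries.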

Additional observations from a re-analysis of the deposited data

How the results depend on the processing

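Over 860 recomputed values, 716 kept their direction and their side of the threshold (or, for counts, stayed within 1.5 times), 74 kept their direction but no longer passed, 30 passed only under the alternative, 25 counts moved and 15 values changed sign. Ighv5-2 and Ighv5-12 passed under each alternative, over all rows and within V joins, and Ighv5-6 did so within V joins.

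Against 8 segments that passed, 2 passed with a replicate block, 2 within the shared run, 4 with no filter on low counts and 4 with all 12 v-Abl libraries; leaving out 1 library gave 2 to 10. Against 0 D segments within D joins, 3 passed with a replicate block, 1 within the shared run, 3 with distinct reads, 2 with no filter, 3 with all 12 libraries and 2 with limma trend in place of voom; leaving out 1 library gave 0 to 4. Against 5 D segments inside V joins, 2 passed within the shared run, 3 with runs of 10 bases, 2 in Ighv5-2 joins only and 1 in the joins of other V segments; leaving out 1 library gave 3 to 6. Against 1 zone, 0 passed within the shared run, 3 with distinct reads and 2 with all 12 libraries. The shared run, the leave-outs and the split by V hold fewer libraries or joins; for the other settings the cause was not tested.

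The labels state no pairing of samples by replicate number. Deviations from the group means of libraries with the same number correlated at -0.37, -0.40 and 0.36. Only number 3 correlated best with its own number. With 3 libraries a group these deviations are not independent, so the values cannot show whether the numbers pair the samples.

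Sign changes were all in values that did not pass. Without 1 library, the difference (3CBEdel minus WT) ranged from -5.04 to 2.06 per 100000 rows for joins beyond the 3′ end, from -0.648 to 0.016 percentage points for blunt or overlapping D joins, from -2.10 to 0.788 for the Ighd1-1 share of D joins and from -20.2 to 1.96 per 100000 rows at the site 1010 bp from Ighd1-1. On the log2 scale it ranged from -0.52 to 0.54 for Ighd6-2, from -0.041 to 0.027 for Ighd1-1 and from -0.75 to 0.35 for Ighd2-7 inside V joins. With distinct reads the blunt share differed by 1.32, the Ighd1-1 share of D joins by 0.747, Ighd6-2 by -0.15 and Ighd1-1 by 0.031. With median-of-ratios scaling Ighd6-2 was at -0.0041, in joins of other V segments Ighd2-7 was at 0.99, and within the shared run Ighd2-3 inside V joins was at -0.0085.

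Depth limits the V segments that can be tested to 23 of 124, and a count of 0 joins in a library allows a level of 1.70 to 3.62 per 100000 rows.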

Other observations

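Outside chromosome 12, 531 joins lay in the light-chain locus Igk (chr6:67505630-70676751), which RAG also cuts. They stood at 84.7, 99.5 and 67.6 per 100000 rows in WT and at 43.3, 41.1 and 54.3 in 3CBEdel, and the groups did not overlap (exact permutation p = 0.1; 0.23 after adjustment over 51 measures). The 10-kb window with the most joins, 181 in all, holds the Jk segments and Igkc. Joins elsewhere outside chromosome 12 were at 67.4 ± 19.9 and 99.1 ± 32.6, and their groups overlapped (exact permutation p = 0.3).

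Where Ighd1-1 was joined to JH4, 42.2%, 42.3% and 42.4% of joins in WT and 43.1%, 43.1% and 43.2% in 3CBEdel used its last coding base next to the signal. The difference of 0.835 percentage points was small, and the groups did not overlap (exact permutation p = 0.1), as in 22 of all 51 single measures (43.1%). Blunt or overlapping ends made up 78.9% ± 0.162 of D joins in WT and 78.6% ± 0.664 in 3CBEdel (exact permutation p = 0.6).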
